A study of Homo sapiens with 16 samples.

Results

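The genes that encode histones, the proteins around which DNA is wound, were examined in the human T cell line Jurkat E6-1, given as lymphoma in the labels. Members were taken by gene symbol: the replication-dependent genes of the H1, H2A, H2B, H3 and H4 families, the replacement genes H1-10, H2AX, H2AZ1, H2AZ2, H2AJ, H3-3A and H3-3B, and the germ line linker genes H1-7 and H1-8. The genes described number 76 of the 60662 gene identifiers in the count tables. Of these, 67 were replication-dependent (6 H1, 15 H2A, 18 H2B, 13 H3 and 15 H4 genes), 7 were replacement genes and 2 were germ line linker genes. The classes were set by symbol alone. All members not named above, H1-6, H2AC1 and H2BC1 among them, were counted as replication-dependent. H2AC18 and H2AC19, which also match the rule, were not analysed here. RNA-seq reads per gene were compared between 8 peroxide libraries and 8 control libraries. Peroxide libraries came from wild-type cells placed in PBS (phosphate-buffered saline) with 10 µM hydrogen peroxide for 4 h, and control libraries came from untreated wild-type cells at 0 h. The labels call the libraries of each group biological replicates. Time in saline and peroxide differ together between the groups and cannot be told apart. The names of the deposited tables place 4 libraries of each group in each of 2 batches. The meaning of a batch is not stated there.

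Replication-dependent histone genes are transcribed mostly in S phase, when newly made DNA has to be packaged. Their mRNAs usually end in a conserved stem-loop in place of a poly(A) tail. The stem-loop binding protein SLBP holds this structure through processing, translation and decay, and the mRNAs are lost quickly when DNA synthesis stops. Replacement genes are transcribed through the cell cycle, most have introns and poly(A) tails, and their proteins enter chromatin outside replication. H2AX gives both kinds of RNA, one ending in the stem-loop and a longer polyadenylated one. Some replication-dependent genes, among them H1-2, H2AC6, H2BC4, H2BC5, H2BC12 and H2BC21, are also known to give polyadenylated RNA in differentiated cells.

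Libraries held 5556553 to 15720881 reads in genes. T cell markers were clearly present: all 8 of 8 had a control mean of at least 1 CPM (counts scaled to library size), with sums of 2244 to 2920 CPM in peroxide libraries and 2180 to 2989 CPM in control libraries. None of 3 erythroid and none of 3 epithelial markers reached 1 CPM in controls, and of 4 B cell markers only CD79A did. The 4 myeloid markers summed to 4.02 to 13.3 CPM in peroxide libraries and 0.125 to 0.943 CPM in control libraries, and the part of this difference in the results below was not tested. The share of counted reads that did not align uniquely was 33.3% to 45.8% in peroxide libraries and 30.2% to 47.2% in control libraries, with the highest share in control replicate 1. That library also stands apart in its replication-dependent histone reads, as described with the summed levels, and the results that rest on it are given with and without it. In bulk RNA, fewer cells of a type and less RNA per cell cannot be told apart.

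Near-identical copies and overlapping genes limit what can be counted. A read that fits several places equally well does not align uniquely and is counted for no gene. Against all transcripts of GENCODE release 29, which held 74 of the 76 genes by identifier, 43 of 65 replication-dependent genes had every 100-base stretch to themselves, and 13 had fewer than 50% of their 100-base stretches free of a match in another gene on either strand. Those 13 genes together collected 44 reads in the peroxide libraries and 68 reads in the control libraries. H3C14 and H3C15, which are copies of each other, and H3C4 and H2AC15, whose exonic bases lie 100% within another annotated gene, had no unique stretch. H2AC7 had 2.38% and H4C15 had 2.90%, and none of these 6 genes had a read in any library. H4C12 also had no unique stretch, with 1 read in the peroxide libraries and 2 reads in the control libraries. H2AC1, H2BC1 and H4C7 also had no read, although all of their stretches are unique. All 7 of these replacement genes had at least 89.3% unique stretches. H3-3A, with 89.7% over its 4 annotated transcripts pooled, shares sequence with 5 other genes.

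**Figure D1:**
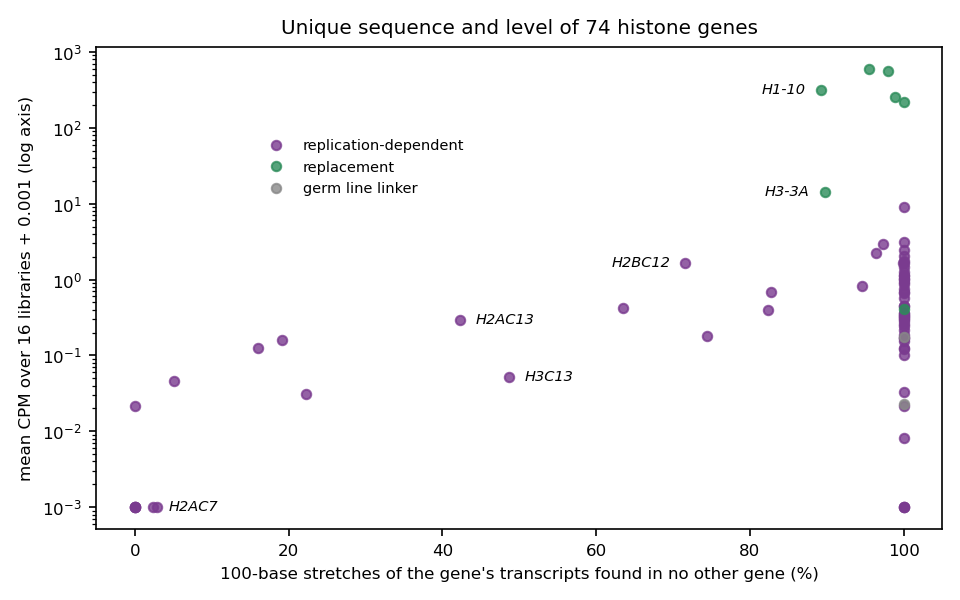
Share of each gene's 100-base stretches found in no other gene (x axis, percent) against its mean level (y axis, CPM over 16 libraries plus 0.001, log axis) for the 74 histone genes matched in GENCODE release 29. Points at the bottom are genes with no read, which lie at both ends of the x axis, and the replacement genes other than H2AJ lie at the top right.

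The stem-loop was found in annotated transcripts of 29 of 65 replication-dependent genes and of H2AX, and in no other replacement gene. In 21 of those 29 genes an annotated transcript runs more than 300 bases past it, among them 5 of the 7 such genes that had enough reads to be tested and 16 of 22 that did not. Many genes without a match have short annotated transcripts, such as H4C1 (312 bases), H2BC3 (381 bases) and H3C1 (411 bases). A stem-loop past the annotated end could not be found, so no match does not mean that a gene lacks it. The stem-loops of the genes most discussed below are given 5′ to 3′ as DNA with the 4 loop bases in capitals. H2BC26, H2BC21 and H2AC25 have identical letters, and the longest annotated transcripts run 1917, 1729 and 390 bases past the stem-loop. In H4C9 that distance is 212 bases and in H2AX it is 1044 bases.
H2BC26 stem-loop: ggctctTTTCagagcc
H2BC21 stem-loop: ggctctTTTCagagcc
H2AC25 stem-loop: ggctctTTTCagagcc
H4C9 stem-loop: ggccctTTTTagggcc
H2AX stem-loop: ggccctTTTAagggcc

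Promoter windows from RefSeq (GRCh38.p14, 250 bases before to 50 bases after the start) were matched for 71 members, and 5 motifs were searched on both strands. The octamer ATTTGCAT, which binds OCT1, occurred in 14 of 18 replication-dependent H2B windows, 11 of 14 H2A windows and 1.77% of all 34943 windows. Windows of H2A and H2B genes that lie head to head overlap, so the same octamer can be counted for both genes. CCAAT occurred in 52 of 62 replication-dependent windows and 34.6% of all windows, and TATAAA in 40 of 62 and 11.6%. AAACACA, the AC box of linker histone promoters, occurred in 6 of 6 replication-dependent H1 windows and 5.66% of all windows. TGACGTCA, the cyclic AMP response element, occurred in 9 of 62 replication-dependent windows and 1.84% of all windows. A match is a description of letters only, and in the windows shown no match overlaps another. The 250 bases before the start are shown for the replication-dependent genes with the largest rises, for the replacement genes H3-3B and H2AX, which had the largest rises of the replacement genes tested, and for H2AJ, which had reads in peroxide libraries alone. Capitals mark matches to the motifs on either strand.
H2BC26 promoter, chr1:228457853-228458102, plus strand: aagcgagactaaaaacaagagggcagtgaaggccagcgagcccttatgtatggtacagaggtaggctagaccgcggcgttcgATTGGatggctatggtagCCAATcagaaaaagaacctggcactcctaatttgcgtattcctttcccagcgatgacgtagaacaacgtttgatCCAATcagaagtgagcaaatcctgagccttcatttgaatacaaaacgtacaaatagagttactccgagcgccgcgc
H2BC21 promoter, chr1:149886683-149886932, minus strand: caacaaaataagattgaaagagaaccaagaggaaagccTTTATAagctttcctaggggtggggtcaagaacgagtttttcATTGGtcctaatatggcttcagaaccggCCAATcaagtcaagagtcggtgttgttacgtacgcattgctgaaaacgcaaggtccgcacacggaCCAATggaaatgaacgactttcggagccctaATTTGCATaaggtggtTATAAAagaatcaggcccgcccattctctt
H3-3B promoter, chr17:75779780-75780029, minus strand: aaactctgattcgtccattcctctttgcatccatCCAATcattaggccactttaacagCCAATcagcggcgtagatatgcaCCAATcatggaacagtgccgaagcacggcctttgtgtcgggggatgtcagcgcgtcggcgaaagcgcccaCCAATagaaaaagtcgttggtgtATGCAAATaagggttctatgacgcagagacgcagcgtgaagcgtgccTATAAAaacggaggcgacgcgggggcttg
H2AX promoter, chr11:119095466-119095715, minus strand: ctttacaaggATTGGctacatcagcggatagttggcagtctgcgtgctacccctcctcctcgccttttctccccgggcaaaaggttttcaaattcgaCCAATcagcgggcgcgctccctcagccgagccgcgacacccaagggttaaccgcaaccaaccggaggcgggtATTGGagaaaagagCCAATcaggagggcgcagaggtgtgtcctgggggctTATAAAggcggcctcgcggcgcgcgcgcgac
H2AJ promoter, chr12:14774155-14774404, plus strand: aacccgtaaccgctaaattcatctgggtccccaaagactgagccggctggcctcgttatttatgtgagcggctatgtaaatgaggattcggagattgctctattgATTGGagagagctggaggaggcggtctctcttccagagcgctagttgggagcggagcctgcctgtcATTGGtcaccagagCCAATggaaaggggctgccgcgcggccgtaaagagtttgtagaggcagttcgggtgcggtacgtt
The H2BC26 window has 3 CCAAT matches and neither the exact octamer nor TATAAA, whereas H2BC21 has the octamer, TATAAA on both strands and 3 CCAAT matches. H3-3B was the replacement gene whose window held the octamer. H2BC26 lies head to head with H2AC25, with 230 bases between the starts. It was 1 of 13 such pairs of members with starts under 1000 bases apart. H3C4 and H2AC7, listed with the same window, each count there as a pair with H2BC7.

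Of the 76 members, 16 had enough reads to be tested with edgeR's quasi-likelihood test, 10 of them replication-dependent and 6 replacement genes. Calls were made at an adjusted p under 0.05 over all 14092 genes tested. Peroxide against control called 12 members higher, where 24.1% of all genes tested were called higher, 24.3% lower and 48.3% in either direction. The replication-dependent genes tested had 6 higher, 0 lower and 4 not called, and their median log2 fold change was 0.63. The 0 lower was also 0 at an unadjusted p under 0.05 and with DESeq2. The 6 replacement genes tested were called higher, and their median was 0.60, against -0.01 over all genes tested. The filter asked for reads in as many libraries as a group holds, so reads in the peroxide libraries alone could carry a gene past it. Of the replication-dependent genes called higher, H2BC26, H2BC11 and H4C9 would not have passed on their control libraries alone. The counts and medians are descriptions of the genes that passed. Another 47 replication-dependent genes, H2AJ, H1-7 and H1-8 had reads but fell below the filter, and 10 replication-dependent genes had no read in any library. With each library's total count as the only scaling, all genes split into 2809 higher and 4414 lower, against 3391 higher and 3419 lower here, and the counts of members called stayed 6 higher and 0 lower for replication-dependent genes.

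**Figure D2:**
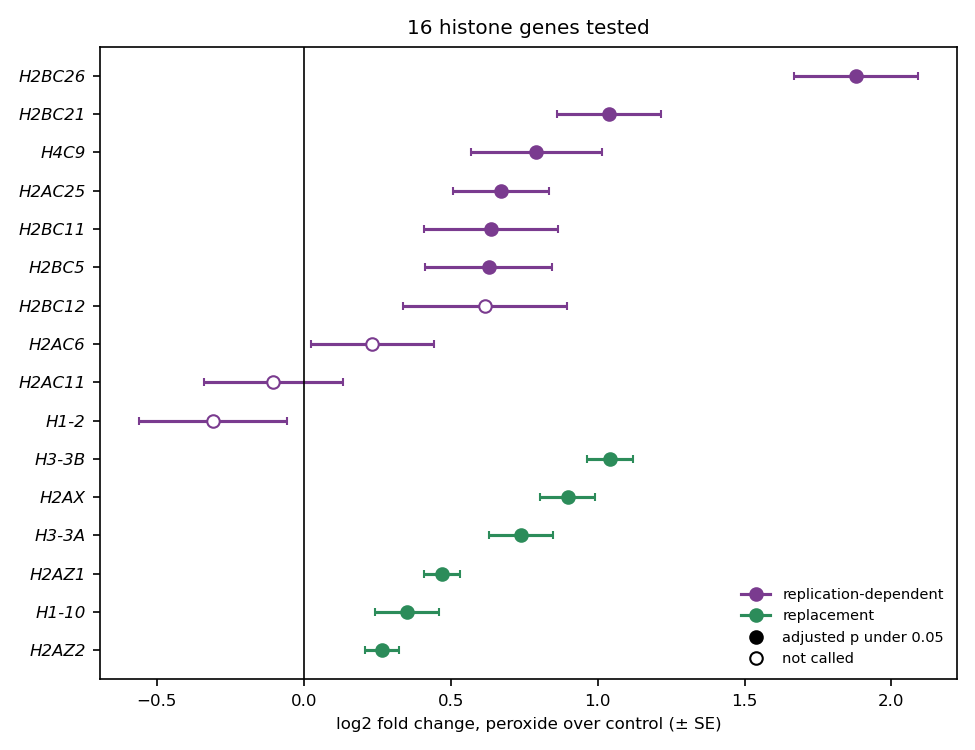
Log2 fold change of peroxide over control with its standard error (x axis) for the 16 histone genes tested, ordered by size within each class. Filled points passed an adjusted p of 0.05: 6 of 10 replication-dependent genes and 6 of 6 replacement genes lie above 0 and filled.

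H3-3B and H3-3A encode the same protein, the replacement histone H3.3, and both rose. H3-3B had 641, 773 and 859 CPM (lowest, median and highest) in peroxide libraries, against 317, 355 and 448 CPM in control libraries. The groups did not overlap in H3-3B, and its log2 fold change was 1.04 ± 0.08 (SE, n = 8 each; edgeR adjusted p = 6.98e-10). H3-3A had 12.3, 19.6 and 22.4 CPM in peroxide libraries, against 8.35, 10.3 and 13.5 CPM in control libraries. The lowest peroxide libraries of H3-3A reached into the range of the highest controls, and the log2 fold change was 0.74 ± 0.11 (SE; edgeR adjusted p = 9.77e-06). Per kilobase of its longest annotated transcript, H3-3B had 274 CPM in peroxide libraries and 133 CPM in control libraries. On the same measure H3-3A had 9.52 CPM in peroxide libraries and 5.6 CPM in control libraries. H3-3A shares 50-base stretches with 12 other genes, and a read that fits several places equally well is counted for none. Its level may therefore be too low, by an amount that was not tested. H3-3B shares 4.91% of its exonic bases with UNK on the other strand and a microRNA gene, and without knowledge of the strand setting such reads cannot be told apart.

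Among the H2A replacement genes with enough reads to be tested, H2AX, whose protein is phosphorylated around DNA double-strand breaks, had the largest rise. It had 199.8 to 360.0 CPM in peroxide libraries with a median of 277 CPM, against 122 to 169 CPM in control libraries with a median of 159 CPM. No peroxide library lay within the control range. The log2 fold change of H2AX was 0.90 ± 0.09 (SE; edgeR adjusted p = 7.47e-08), 0.88 in batch 1 and 0.92 in batch 2.

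H2AZ1 and H2AZ2 encode the 2 forms of H2A.Z, a variant found at promoters. H2AZ1 had 629.7, 696 and 761 CPM in peroxide libraries, against 444, 487 and 595 CPM in control libraries, and the groups did not overlap (log2 fold change 0.47 ± 0.06, SE; edgeR adjusted p = 1.60e-06). H2AZ2 had 245, 280.0 and 309.5 CPM in peroxide libraries, against 207, 233 and 265 CPM in control libraries. Its ranges overlapped between 245 and 265 CPM, and its log2 fold change of 0.27 ± 0.06 was the smallest rise among the replacement genes (SE; edgeR adjusted p = 0.000667). H3-3B, H2AX and H2AZ1 were thus 3 of 6 replacement genes tested whose 8 peroxide libraries all lay above all 8 control libraries, where 6.76% of all genes tested did so. H2AZ1 shares 9.68% of its exonic bases with a gene on the other strand.

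**Figure D3:**
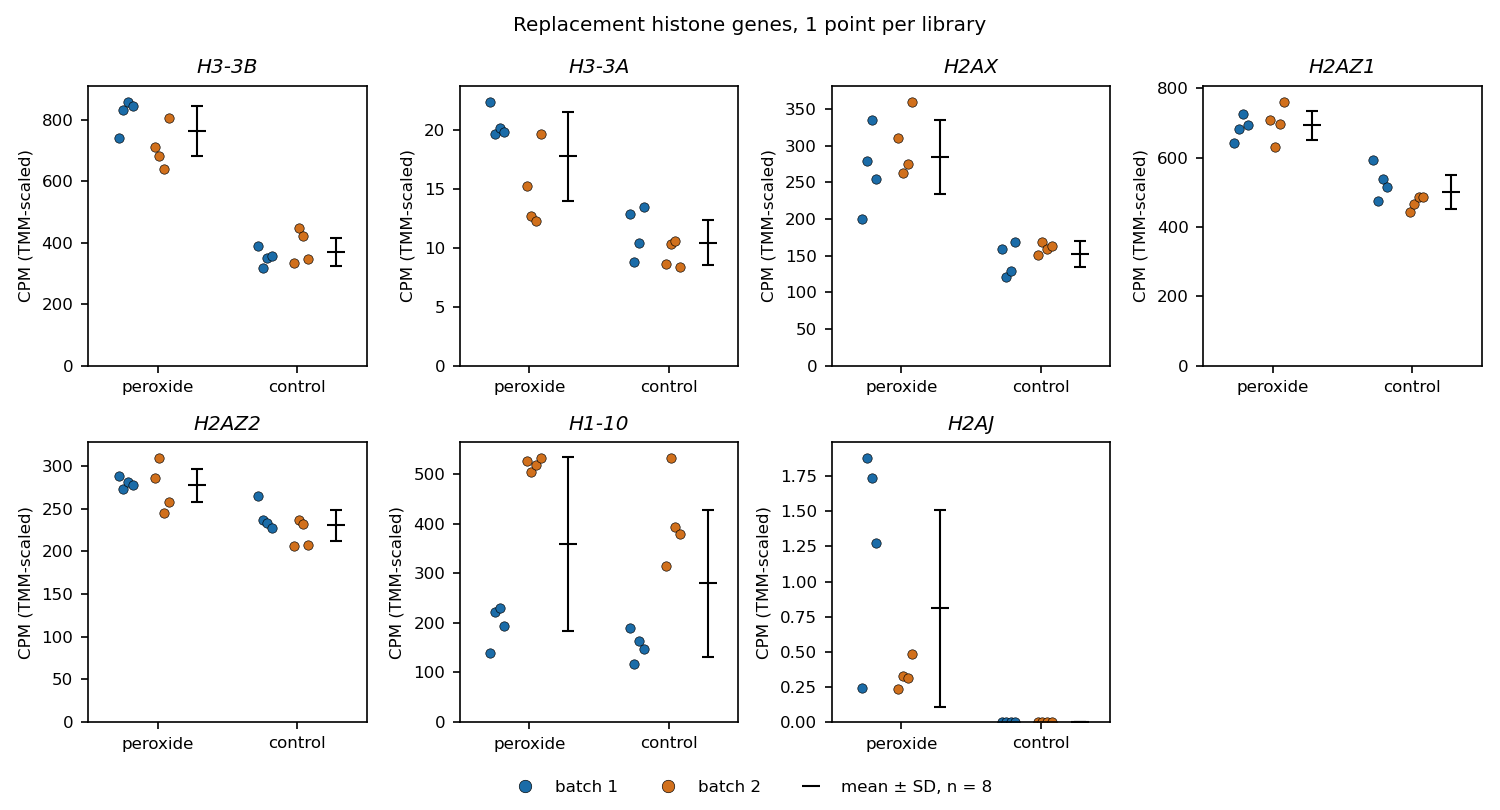
Level of the 7 replacement histone genes in each library (y axes, CPM with TMM scaling, starting at 0), peroxide left of control, with points coloured by batch and a bar for the mean and SD of 8 libraries. H3-3B, H2AX and H2AZ1 have peroxide libraries above every control library, H1-10 separates by batch more than by treatment, and H2AJ is at 0 in all 8 control libraries.

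The linker histone gene H1-10, whose protein binds DNA between nucleosomes, differed between batches by more than between treatments. It had 138 to 231 CPM in peroxide libraries of batch 1, against 117 to 189 CPM in control libraries of batch 1. In batch 2 it had 505 to 532 CPM in peroxide libraries, against 314 to 532 CPM in control libraries. In batch 2 the highest control library stood level with the highest peroxide library, and the other control libraries lay below all 4 peroxide libraries. The log2 fold change was 0.35 ± 0.11 (SE; edgeR adjusted p = 0.0110), with 0.34 in batch 1 (edgeR adjusted p = 0.10) and 0.36 in batch 2 (edgeR adjusted p = 0.0279). The call was lost in batch 1 alone and without the batch term (edgeR adjusted p = 0.453). Batch 2 exceeded batch 1 by 1.40 on the log2 scale (edgeR adjusted p = 3.32e-09), a difference called in either direction for 51.2% of all genes tested. H1-10 shares 22.9% of its exonic bases with its antisense gene.

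No member was called for a difference in response between batches, where 4.88% of all genes tested were called (edgeR, interaction of batch and treatment). With so low a share, 0 of 16 is not read as a trait of histone genes. At an unadjusted p under 0.05 there were 5 of 16 members, namely H3-3B, H1-2, H2BC5, H2BC12 and H2BC21, and DESeq2 called 0. The share of all genes tested at that unadjusted cutoff was not counted, so the 5 are a description only. The smallest adjusted p was that of H3-3B (0.162), whose log2 fold change was 1.21 in batch 1 and 0.88 in batch 2.

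H2AJ, an H2A form described in senescent human cells, had no read in any of the 8 control libraries and 52 reads in the peroxide libraries, spread over 8 of 8. Its level was 0.233, 0.404 and 1.88 CPM (lowest, median and highest) in peroxide libraries. Peroxide replicates 2 to 4 held 38 of these reads: the mean was 1.28 CPM in peroxide libraries of batch 1 and 0.338 CPM in peroxide libraries of batch 2. The difference in means had an exact permutation p of 0.0001554 (two-sided, n = 8 each), the smallest this design can give, and within each batch the exact permutation p was 0.0286, again the smallest with n = 4 each. Against the limit that a count of 0 allows, set at 3 counts over the control group, H2AJ was at least 21.2-fold higher in peroxide libraries. All of its 100-base stretches are unique. The nearest expressed gene downstream, WBP11, lies on the other strand 6.58 kb away. It had a log2 fold change of 0.29 (edgeR adjusted p = 6.14e-05). An expressed gene without a symbol, ENSG00000261324, lies 6.45 kb before H2AJ on the other strand, and its log2 fold change was -0.99 (edgeR adjusted p = 0.00384).

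H1-7, a linker histone of sperm cells, had no read in the control libraries and 23 reads in 5 of 8 peroxide libraries. It was at least 9.36-fold higher in peroxide libraries by the same limit (exact permutation p = 0.0256, two-sided, n = 8 each), and 3 peroxide libraries were at 0 as well. Taken by batch, its exact permutation p was 0.429 in batch 1 and 0.143 in batch 2. H1-8, the linker histone of oocytes, had 2 reads in all peroxide libraries and 1 read in all control libraries.

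H2B genes made up 4 of the 6 replication-dependent genes called and 5 of the 10 tested, so they were also the largest family past the filter. H2BC26, which lies with H2AC25 in a small cluster on chromosome 1, had 2.45, 3.49 and 5.21 CPM in peroxide libraries, against 0.639, 0.768 and 1.94 CPM in control libraries. All peroxide libraries lay above all control libraries. H2BC26 had the largest log2 fold change of the members tested, 1.88 ± 0.21 (SE; edgeR adjusted p = 2.55e-07), and it was 2.19 in batch 1 and 1.66 in batch 2. It passed the filter through its peroxide libraries, the group where it is high, so these values are descriptions.

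H2BC21, from the chromosome 1 cluster beside H2AC20, had 2.41, 3.79 and 6.05 CPM in peroxide libraries, against 1.49, 1.98 and 2.41 CPM in control libraries. The groups touched at 2.41 CPM, where the lowest peroxide and the highest control library met. The log2 fold change of H2BC21 was 1.04 ± 0.18 (SE; edgeR adjusted p = 5.08e-05). H2BC5 had 2.05, 2.95 and 3.74 CPM in peroxide libraries, against 1.13, 1.65 and 4.24 CPM in control libraries, with control replicate 1 above every peroxide library. Its log2 fold change was 0.63 ± 0.22 (SE; edgeR adjusted p = 0.0198), and 0.89 without control replicate 1 (edgeR adjusted p = 0.000401). Leaving out control replicate 6 ended the call of H2BC5 (edgeR adjusted p = 0.0504), and so did batch 1 alone (log2 fold change 0.24, edgeR adjusted p = 0.568) and a fit without the batch term (0.60, edgeR adjusted p = 0.0710).

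H2BC11 had 1.45, 2.20 and 2.72 CPM in peroxide libraries, against 0.639, 1.36 and 2.57 CPM in control libraries, where the highest value again came from control replicate 1. Its log2 fold change was 0.64 ± 0.23 (SE; edgeR adjusted p = 0.0251), the weakest call among the members. It was lost without control replicate 3, control replicate 6 or peroxide replicate 6 (edgeR adjusted p = 0.0571, 0.0584 and 0.0537) and in batch 1 alone (0.316), and it strengthened to a log2 fold change of 0.89 without control replicate 1. H2BC12 was not called, with 1.17, 1.90 and 2.71 CPM in peroxide libraries and 0.367, 1.16 and 2.33 CPM in control libraries. The log2 fold change of H2BC12 was 0.62 ± 0.28 (SE; edgeR adjusted p = 0.0744), and 0.81 without control replicate 1 (edgeR adjusted p = 0.0227). Only 71.6% of its 100-base stretches are unique.

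H2AC25, the partner of H2BC26, had the highest level of all replication-dependent genes. It had 5.35, 10.1 and 19.5 CPM in peroxide libraries, against 1.5, 6.09 and 12.7 CPM in control libraries. The ranges overlapped over both batches but were apart within batch 1, at 5.35 to 9.34 CPM in peroxide libraries and 1.5 to 4.29 CPM in control libraries. The log2 fold change of H2AC25 was 0.67 ± 0.16 (SE; edgeR adjusted p = 0.00188), the call was lost without the batch term (edgeR adjusted p = 0.190), and batch 2 exceeded batch 1 by 1.41. H2AC6 and H2AC11 were not called, with log2 fold changes of 0.23 ± 0.21 and -0.10 ± 0.24 (SE; edgeR adjusted p = 0.379 and 0.748). H2AC11 stands head to head with H2BC11, and 248 bases separate their starts.

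H4C9 was the H4 gene that was tested, and it rose. It had 1.47, 2.15 and 2.53 CPM in peroxide libraries, against 0.751, 1.04 and 2.08 CPM in control libraries, and the ranges overlapped. Its log2 fold change was 0.79 ± 0.22 (SE; edgeR adjusted p = 0.00574), with 0.38 in batch 1 (edgeR adjusted p = 0.357) and 1.20 in batch 2 (edgeR adjusted p = 0.00498). H1-2, the replication-dependent linker gene with the most reads, had 1.70, 2.61 and 4.28 CPM in peroxide libraries, against 2.20, 3.02 and 7.23 CPM in control libraries. It was not called, with a log2 fold change of -0.31 ± 0.25 (SE; edgeR adjusted p = 0.331) that became 0.0075 without control replicate 1. No H3 gene of the replication-dependent class passed the filter. The highest of them, H3C10, had 0.434, 1.04 and 3.75 CPM in peroxide libraries, against 0.458, 0.722 and 2.08 CPM in control libraries.

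Of the 6 genes known to give polyadenylated RNA, H2BC5 and H2BC21 were called higher, H1-2, H2AC6 and H2BC12 were not called, and H2BC4 fell below the filter. H2BC4 averaged 0.907 ± 0.523 CPM in peroxide libraries and 0.965 ± 0.894 CPM in control libraries (SD, n = 8 each), with 3.16 CPM in control replicate 1. By location, 3 of 3 tested genes on chromosome 1 and 3 of 7 tested genes on chromosome 6 were called higher, against 24.1% of all genes tested. Those on chromosome 1 include H2AC25 and H2BC26, whose starts lie 230 bases apart. The chromosomes carry 11 and 53 of the 65 replication-dependent genes found in GENCODE release 29, and the difference between them was not tested.

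The 57 replication-dependent genes below the filter were scarce: the highest averaged 1.44 CPM over the 16 libraries and had 226 reads in all. When genes with any read were tested without a filter, 47 of them could be fitted, of which 3 were called higher (H2AC21, H2BC15 and H4C8) and 4 lower (H1-3, H1-5, H2BC10 and H4C16), by names chosen after their values were seen. Without the filter, 13.5% of 38177 genes were called higher and 11.3% lower. Control replicate 1 decided several of these: without it, 6 were called higher and 1, H4C16, lower. All 37901 genes fitted then gave 4815 higher and 4083 lower, so the counts of members are not read as a trait of histone genes. The median log2 fold change of the 47 genes was 0.40 in place of -0.13. Over all genes fitted the median was 0.098 in place of 0.10. This second setting was chosen after seeing the data.

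H1-5 shows the pattern: it had 0.133, 0.637 and 2.10 CPM in peroxide libraries, against 0.297, 0.587 and 7.31 CPM in control libraries. The highest value, from control replicate 1, was far from the other controls. H4C16, an H4 gene on chromosome 12 near H2AJ, was lower with and without that library. It had 0.133, 0.786 and 1.33 CPM in peroxide libraries, against 0.734, 1.16 and 3.09 CPM in control libraries, and the ranges overlapped. For the mean of H4C16 the exact permutation p was 0.0536 (two-sided, n = 8 each). The model without a filter gave a log2 fold change of -1.04 ± 0.27 (SE; edgeR adjusted p = 0.000974). The permutation ignored batch and the model held a term for it, so the p-values are not like for like. H4C16 was picked by its call in that model on the same libraries, so the permutation p-values are no separate support. Within batches the exact permutation p of H4C16 was 0.229 in batch 1 and 0.114 in batch 2.

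H2BC15, which shares 7.25% of its exonic bases with H2AC15 and H2AC16, averaged 1.21 ± 0.511 CPM in peroxide libraries and 0.438 ± 0.294 CPM in control libraries (SD; exact permutation p = 0.00218, two-sided, n = 8 each). H2AC21, which shares 6.87% with BOLA1 on the other strand, averaged 0.555 ± 0.368 CPM in peroxide libraries and 0.175 ± 0.164 CPM in control libraries (SD; exact permutation p = 0.0194, two-sided, n = 8 each). The H2AC21 groups were apart in batch 2, at 0.723 to 0.979 CPM in peroxide libraries and 0 to 0.229 CPM in control libraries, and overlapped in batch 1. Within batch 1 the exact permutation p was 0.114 for H2BC15 and 0.943 for H2AC21. Within batch 2 the exact permutation p was 0.0286 for both. Both genes were picked by their calls in the fit without a filter to these same libraries. The permutation p-values are therefore descriptions and no separate support.

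**Figure D4:**
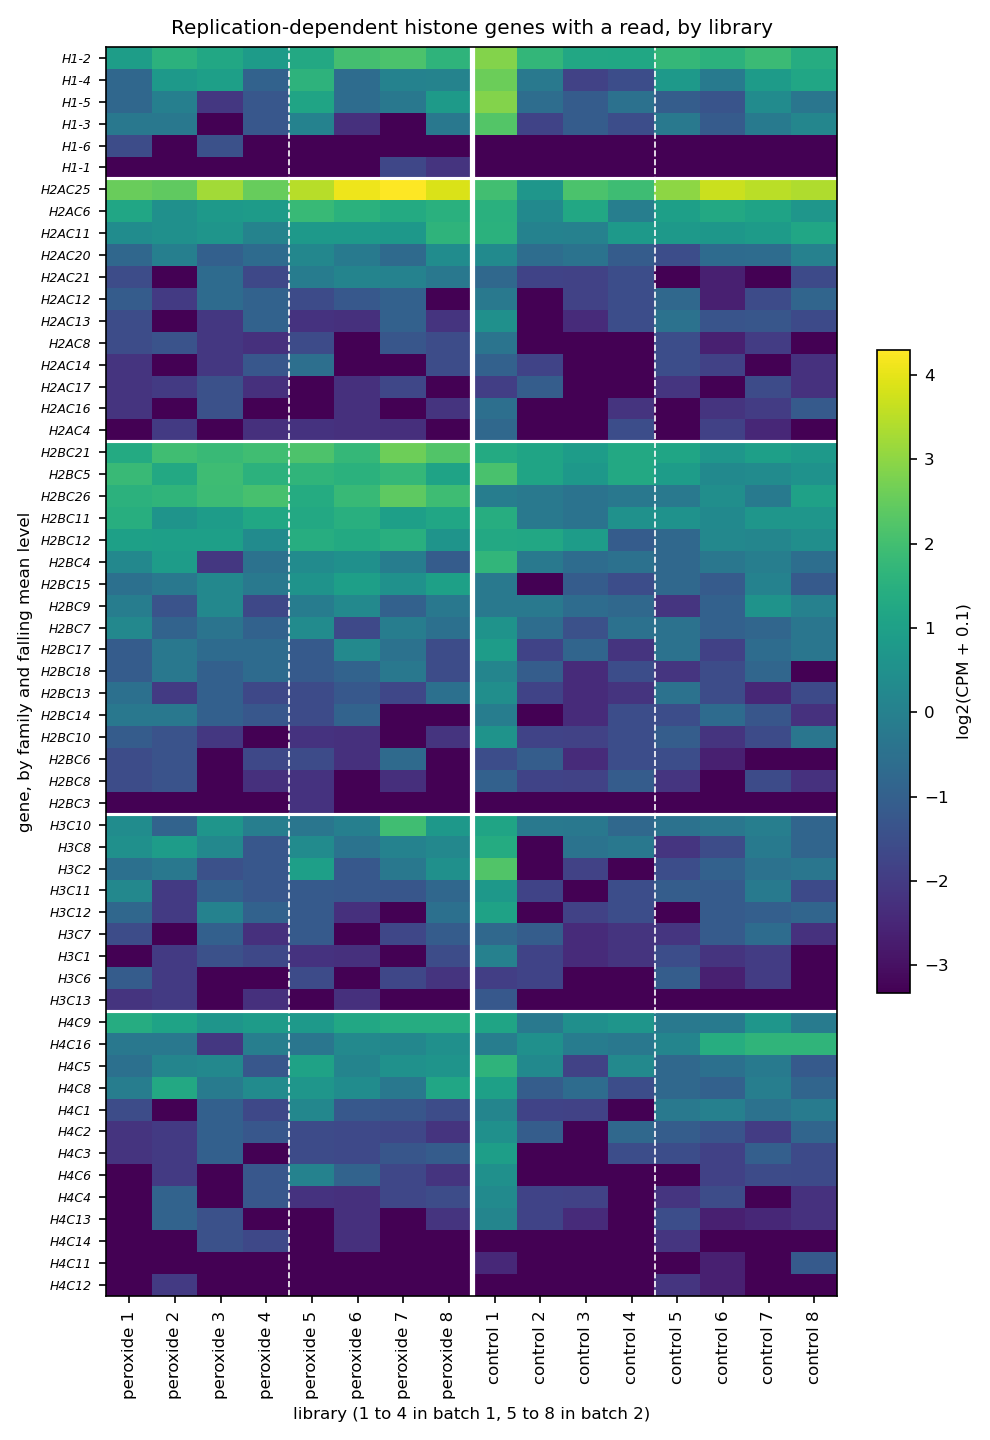
Level of the 57 replication-dependent histone genes with a read (rows, by family and falling mean) in each library (columns, peroxide left of control, batch 1 left of batch 2 within each), as log2(CPM + 0.1). Control replicate 1 is brighter than the other controls in most rows, and H2AC25 is brightest of all in batch 2.

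Summed over the 67 genes, replication-dependent histone RNA took 39.5 to 70.3 CPM in peroxide libraries, 26.2 to 47.9 CPM in 7 of the control libraries and 96.1 CPM in control replicate 1. Within batches the sum was 39.5 to 48.6 CPM in peroxide libraries of batch 1, against 26.2 to 27.8 CPM in control replicates 2 to 4. In batch 2 it was 60.2 to 70.3 CPM in peroxide libraries, against 36.9 to 47.9 CPM in control libraries. Apart from control replicate 1, every peroxide library thus had a higher sum than every control library of its batch. That library was set aside after its values were seen. With it, the batch 1 mean was 44.7 ± 3.80 CPM in peroxide libraries and 44.3 ± 34.5 CPM in control libraries (SD, n = 4 each). For genes below the filter these means were 17.6 and 24.1 CPM. The share of all genes that separate so within a batch was not counted. Without H2AC25, the most abundant gene, batch 2 still had 43.2 to 51.0 CPM in peroxide libraries, against 27.9 to 36.7 CPM in control libraries.

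Control replicate 1 had the highest level of all 16 libraries in 30 of the 57 replication-dependent genes with a read, and the highest of the 8 controls in 45. Against control replicates 2 to 4 it was higher in 10 of 10 replication-dependent genes tested, with a median log2 difference of 0.76. It was also higher in 6 of 6 replacement genes tested, with a median log2 difference of 0.21. Of 26 S phase genes 15 were higher, with a median of 0.00148, and of all 14092 genes tested 7178 were, with a median of 0.00426. In this library 47.2% of reads did not align uniquely. Peroxide replicate 5, with 45.8%, had a replication-dependent sum of 62.0 CPM, within the range of the other peroxide libraries of its batch. The cause of the excess was not tested.

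The 7 replacement genes took far more reads than the replication-dependent genes, with sums of 2033 to 2736 CPM in peroxide libraries and 1275 to 1863 CPM in control libraries. Per 100 replacement reads there were 1.73 to 2.94 replication-dependent reads in peroxide libraries, 1.84 to 2.81 in 7 control libraries and 5.97 in control replicate 1. Without that library the means were 2.26 ± 0.379 in peroxide libraries (SD, n = 8) and 2.32 ± 0.395 in control libraries (SD, n = 7), so the ratio between the classes lay in the same range in both groups although both sums were higher in peroxide libraries.

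**Figure D5:**
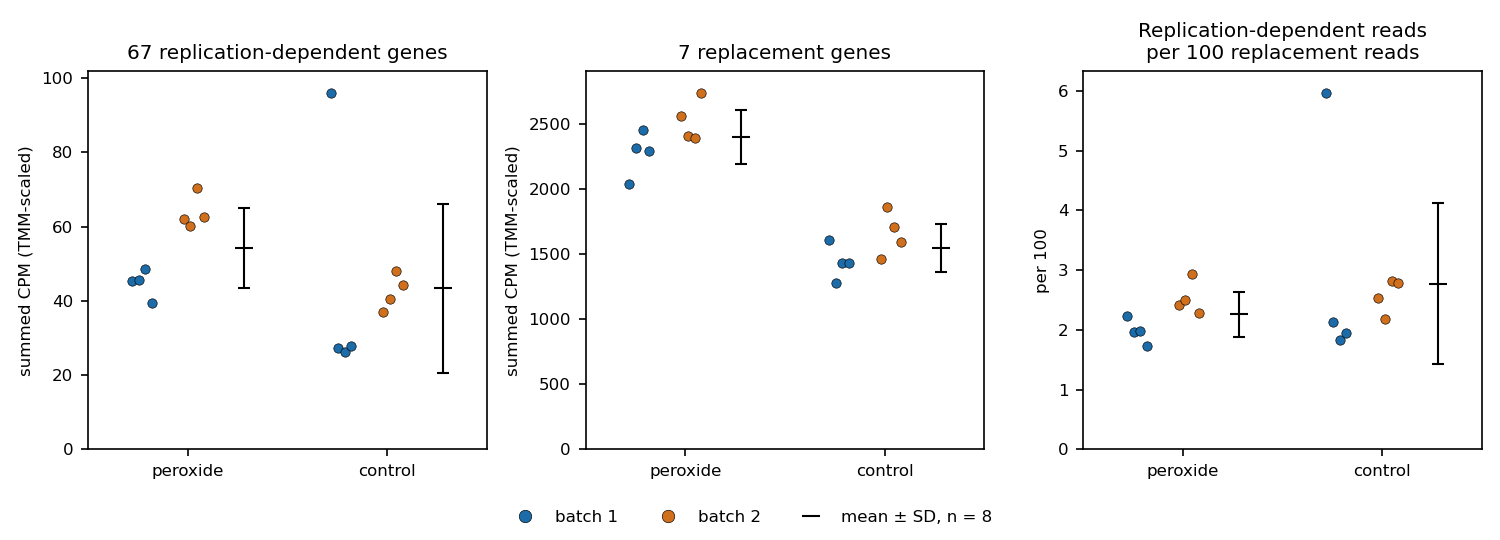
Summed CPM of the 67 replication-dependent genes, summed CPM of the 7 replacement genes, and replication-dependent reads per 100 replacement reads in each library (y axes, starting at 0), peroxide left of control, with points coloured by batch and a bar for the mean and SD of 8 libraries. Control replicate 1 stands at 96.1 CPM in the left panel and at 5.97 per 100 in the right panel, above all other libraries.

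Among the families of the replication-dependent class, the H2B genes were apart in summed level over both batches, with 18.1 to 24.7 CPM in peroxide libraries, against 9.22 to 12 CPM in 7 control libraries and 25.3 CPM in control replicate 1. The H3 genes summed to 2.5 to 6.15 CPM in peroxide libraries, against 1.69 to 4.32 CPM in 7 control libraries and 14.6 CPM in control replicate 1. The H1 genes summed to 2.76 to 8.27 CPM in peroxide libraries, against 3.20 to 7.23 CPM in 7 control libraries and 25.1 CPM in control replicate 1. The H2A genes summed to 9.54 to 14.8 CPM in peroxide libraries of batch 1, against 4.88 to 8.58 CPM in control replicates 2 to 4 and 15.5 CPM in control replicate 1. In batch 2 the H2A sum was 19.1 to 26.4 CPM in peroxide libraries, against 13.4 to 18 CPM in control libraries. The H4 genes summed to 5.17 to 7.52 CPM in peroxide libraries of batch 1, against 3.29 to 4.5 CPM in control replicates 2 to 4 and 15.5 CPM in control replicate 1. In batch 2 the H4 sum was 6.88 to 8.67 CPM in peroxide libraries, against 4.75 to 7.70 CPM in control libraries. With control replicate 1 set aside, the groups were thus apart for H2B and H2A within each batch and for H3 and H4 within batch 1, and they overlapped for H3 and H4 within batch 2 and for H1 within both.

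Levels per kilobase of the longest annotated transcript set the genes in order. In peroxide libraries, H2AZ1 had 369 CPM per kilobase, followed by H3-3B (274), H1-10 (238), H2AX (176), H2AZ2 (72.9), H2AC25 (12.3) and H3-3A (9.52). In control libraries the same genes had 266, 133, 186, 94.4, 60.7, 7.76 and 5.6 CPM per kilobase. These are means over both batches: H3-3B stood above H1-10 in both groups in batch 1 and below it in both groups in batch 2. Reads lost to shared sequence were not corrected for, so the place of H3-3A below H2AC25 is uncertain.

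Genes that process histone pre-mRNA or act in histone mRNA decay were called in both directions. Of 26 tested, 8 were called higher and 6 lower, against 24.1% and 24.3% of all genes tested. Their median log2 fold change was -0.05. SLBP averaged 190.2 ± 19.4 CPM in peroxide libraries and 143 ± 18.3 CPM in control libraries (SD, n = 8 each), a log2 fold change of 0.42 ± 0.06 (SE; edgeR adjusted p = 1.12e-05). NPAT, the coactivator of replication-dependent histone transcription, fell by 0.40 ± 0.09 on the log2 scale (SE; edgeR adjusted p = 0.000989). CSTF2T, a form of the cleavage stimulation factor, fell by 0.46, and WDR33, a poly(A) signal reader, rose by 0.31. The decay factors ERI1, which trims the stem-loop end, and UPF1 had log2 fold changes of -0.11 and -0.09 and were not called (edgeR adjusted p = 0.262 and 0.167). NPAT was not called in batch 1 alone (log2 fold change -0.25, edgeR adjusted p = 0.134).

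Of 27 genes for histone chaperones and deposition, 9 were called higher and 6 lower, against 24.1% and 24.3% of all genes tested. The median was 0.02. NASP, a chaperone of H3 and H4, averaged 726 ± 183 CPM in peroxide libraries and 435 ± 68.0 CPM in control libraries (SD, n = 8 each; log2 fold change 0.71 ± 0.07, SE; edgeR adjusted p = 2.15e-08). NPM1, a nucleolar histone chaperone, and HAT1, which acetylates new H4, rose by 0.64 and 0.39 on the log2 scale. CABIN1, a partner of the H3.3 chaperone HIRA, fell by 0.38 on that scale.

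Of 26 S phase and DNA replication genes, 5 were called higher and 4 lower, against 24.1% and 24.3% of all genes tested. The median was 0.05. The sliding clamp PCNA rose by 0.60, CCNE1, which encodes cyclin E1, by 1.07 and the licensing factor CDT1 by 0.49, while GINS1 of the replicative helicase fell by 0.45. With each library's total count as the only scaling, 5 of these 26 genes were called higher and 11 lower, and their median was -0.0081. On that scaling the processing and decay genes had 5 higher and 10 lower, and the chaperone genes 9 higher and 7 lower. All 14092 genes tested then gave 2809 higher and 4414 lower. Of other histone variants, 3 of 7 in the tables were tested and none was called, with 0 at an unadjusted p under 0.05 and 0 with DESeq2. MACROH2A1 and MACROH2A2, which encode macroH2A, had log2 fold changes of -0.05 and -0.03, and CENPA, the centromeric H3, had 0.03, which was -0.033 with total-count scaling. These lists were named by function, and 48.3% of all genes tested were called in either direction. No list was tested as a set, so the counts are descriptions.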

How the data were processed

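Total RNA of 8 peroxide and 8 control libraries was sequenced, with TRIzol extraction and an Illumina TruSeq kit per the labels' protocols. The deposited values are raw counts of reads in whole numbers, not normalized, in a table for each library. The submitters' processing notes name STAR 2.7.1a, HTSeq 0.6.1 and the build hg19. The identifiers carry later version numbers, so no coordinates of the count tables are printed. Not given in the sources are the counting mode, the strand setting and whether poly(A) RNA was selected. The 5 rows that name no gene held 43.5% to 57.6% of the counts in each table and were left out of library sizes and tests. Symbols came from a gene name table, which matched 99.5% of the identifiers.

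Genes were filtered with edgeR's filterByExpr (edgeR 4.0.16, R 4.3.3), which left 14092 genes with 99.6% of the reads in genes. Counts were scaled by TMM. The test was edgeR's quasi-likelihood F test with terms for batch and group, and p-values were adjusted over all genes tested by the Benjamini-Hochberg method. Levels are TMM-scaled CPM. The standard error is the size of the log2 fold change over the square root of F. Of the genes below the filter, 5 were compared by exact permutation tests, two-sided and not adjusted for this number. H2AC21, H2BC15 and H4C16 were picked for these by their values among 47 replication-dependent genes fitted without a filter. That choice was not adjusted for either. Unless a batch is named, these tests took both batches together without a batch term. Limits from a count of 0 use 3 counts and cover counting error only. Members and lists were chosen with earlier results of these data known. Genes that match the rule and are not reported here enter no count or sum of members. Named were the other replacement and germ line linker genes, replication-dependent genes called with a mean of at least 1 CPM, the highest of each family, genes known to give polyadenylated RNA, and up to 4 genes of each list by p, with SLBP, ERI1, UPF1 and NPAT. H1-3, H1-5, H2AC21, H2BC10, H2BC15, H3C10, H4C8, H4C16, WBP11 and ENSG00000261324 were chosen after their values were seen.

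Unique stretches, stem-loops and overlaps were read from GENCODE release 29, and promoter windows from RefSeq (GRCh38.p14). Within each group and batch, all pairs of libraries differed by more than sampling noise (chi-square per degree of freedom 2.97 to 18.2), so all 16 were kept. In simulated counts for 14092 genes, the altered genes were drawn from those with a mean of at least 5 CPM. Of these, the comparison of peroxide with control recovered 42.0% when altered 1.25-fold and 98.0% when altered 1.5-fold. It recovered 100% of those altered 2-fold or 4-fold, with 12 of 182 calls false. The interaction of batch and treatment recovered 0%, 26% and 92% of genes altered 1.25-fold, 1.5-fold and 2-fold, with 8 of 117 calls false. All replication-dependent genes tested except H2AC25 averaged less than 5 CPM, so recovery at their levels was not measured. Alternatives were DESeq2 1.42.0 with its own size factors, total-count scaling, no filter, the replicate number as a block, no batch term, each batch alone, leaving out both control replicate 1 and peroxide replicate 5, which had the highest shares of reads not aligned uniquely, leaving out each library in turn, counting H2AX as replication-dependent, and, added after seeing the data, no filter without control replicate 1.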

Additional observations from a re-analysis of the deposited data

Results flagged for a closer look

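Of 80 groups of 8 libraries checked for a library far from the others, 10 were marked, and chance marks about 1 in 20. Control replicate 1 gave 8 of them, each as the highest control. These were H1-2 at 7.23 CPM (other controls 2.20 to 3.54 CPM), H2BC4 at 3.16 CPM (0.50 to 0.865 CPM), H2BC5 at 4.24 CPM (1.13 to 2.32 CPM), H2BC11 at 2.57 CPM (0.639 to 1.49 CPM) and H1-8, where 0.0831 CPM stands for a lone read and the other controls were at 0. The summed replication-dependent level was 96.1 CPM (26.2 to 47.9 CPM), the sum of the genes below the filter was 65.0 CPM (8.85 to 21.5 CPM), and there were 5.97 replication-dependent reads per 100 replacement reads (1.84 to 2.81). These checks share the library and many of the same genes, so they are not independent. H2BC26 stood at 1.94 CPM in control replicate 8, where the other controls had 0.639 to 1.2 CPM and the lowest peroxide library had 2.45 CPM. NPAT stood at 57.5 CPM in peroxide replicate 1, where the other peroxide libraries had 39.3 to 47.2 CPM.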

How the results depend on the processing

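Of the replacement genes, 6 were called higher without each library in turn. Replication-dependent genes called higher numbered 6, but 3 in batch 1 alone, 13 with no filter and without control replicate 1, and 4 to 7 with each library left out. Replication-dependent genes called lower numbered 0, but 4 with no filter, 1 in batch 2 alone and 1 with no filter and without control replicate 1, and 0 with each library left out. The median log2 fold change of that class was 0.63, -0.063 with no filter, 0.31 in batch 1 alone and 0.55 to 0.85 with each library left out. Members with a batch interaction numbered 0, but 4 with no filter (H1-5, H2AC21, H3C2 and H4C5) and 0 with no filter and without control replicate 1. Processing and decay genes called numbered 14, but 7 without the batch term, 9 in batch 1 alone and 11 to 15 with each library left out. S phase genes called numbered 9, but 16 with total-count scaling and 9 to 12 with each library left out. Other variants called numbered 0, but 1 with total-count scaling and 1 with no filter and without control replicate 1. The cause of these changes was not tested.

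Signs turned only for genes that were not called. H1-2 was at 0.16 in batch 2 alone, 0.081 without control replicate 1 and peroxide replicate 5 together, and -0.42 to 0.0075 with each library left out. H2AC6 was at -0.15 in batch 1 alone. MACROH2A1 was at 0.0067 in batch 2 alone. MACROH2A2 was at 0.039 in batch 1 alone and -0.081 to 0.087 with each library left out. CENPA was at -0.033 with total-count scaling, -0.022 with no filter, -0.12 in batch 1 alone and -0.0081 with no filter and without control replicate 1. H2BC12 became called in batch 2 alone and without control replicate 1, peroxide replicate 4 or both control replicate 1 and peroxide replicate 5. Of 32 genes named and tested, 19 kept direction and side of the threshold under all alternatives run on them.

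Replicate numbers did not pair the libraries: the deviations of same-numbered libraries correlated at -0.22 to 0.31 over 8 pairs, and 3 of 8 control libraries matched best with their own number. With the replicate number as a block, 6 replication-dependent and 6 replacement genes were called higher, and all genes tested gave 3313 higher and 3374 lower. Total-count scaling moved the median log2 fold change of all genes to -0.08, against -0.01 with TMM. Most replication-dependent genes had too few reads for a test, and were compared only without the filter or by single-gene tests.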
